A study of Saccharomyces cerevisiae with 160 samples.

Results

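The nuclear genes of the mitochondrial respiratory chain and ATP synthase were followed over time in 5 mutant strains of budding yeast that arrest the cell cycle in different ways. The set holds 39 genes, listed by name for their known function and not by their level, and each was measured by 1 of the 5716 yeast probe sets on the array. It covers 4 genes of succinate dehydrogenase (complex II), 9 of the cytochrome bc1 complex (complex III), 2 of cytochrome c, 9 of cytochrome c oxidase (complex IV), 12 of the ATP synthase, and 3 for small proteins that inhibit the ATP synthase or stabilise the inhibited form.

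The respiratory chain passes electrons from succinate and NADH through ubiquinone, complex III and cytochrome c to complex IV, which reduces oxygen, and the ATP synthase uses the proton gradient that results. Budding yeast can live by fermentation, and on glucose it keeps the genes of respiration low. On other carbon sources the CCAAT-binding Hap2/Hap3/Hap5 complex activates them with Hap4, the subunit whose own expression is repressed by glucose, and heme acts through Hap1. Some subunits come as a pair of isoforms: COX5A and CYC1 are the aerobic forms of cytochrome oxidase subunit V and of cytochrome c, and COX5B and CYC7 are the forms known from low oxygen, with CYC7 also known as a stress-responsive gene.

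All strains were haploid BF264-15DU MATa (BF264-15Dau in the study's methods), and G1 cells were collected by size with elutriation and then sampled over time. The cdc20 strain (2 cultures) was bar1, carried the deletion cdc20::LEU2 covered by Pgall-CDC20::ADE2, and had the tubulin marker CFP-TUB1::URA3; it was moved from galactose to dextrose, where Cdc20 is depleted and cells stop in metaphase. The cdc8 strain (2 cultures) carried the temperature-sensitive allele cdc8-ts of thymidylate kinase and, alone among the 5, an intact BAR1; in dextrose at 30 °C it stops in S phase with the DNA replication checkpoint on. The cse4 strain (2 cultures) was bar1 with Pgal-cse4-353::TRP1 and the same tubulin marker, and expressed the mutant centromeric histone in galactose, which turns on the spindle assembly checkpoint. The cdc8cdc20 strain (1 culture) joined cdc8ts to the Cdc20 construct, and the rad53 strain (2 cultures) added rad53-1, which disables the checkpoint kinase Rad53. The study's strain list gives both as bar1 with the same tubulin marker, and lists no such marker for cdc8. The medium of these last 2 strains is not in their sample labels; the study's text gives dextrose for both and 30 °C, the temperature of the cdc8 arrest, for cdc8cdc20; the rad53 strain also carried cdc8ts. No wild-type culture was among the samples. Since only cse4 was sampled in galactose, its medium and its mutation cannot be told apart. The cdc20 strain was in galactose before release. The cdc8cdc20 and rad53 strains carried the same Cdc20 construct and were put in dextrose at release, but their earlier medium was not stated in the sources used here. Earlier medium can therefore also differ between strains, also between cdc8 and the strains with that construct, and its part was not tested. The labels do not say whether the cultures of a strain came from separate isolates, so p-values measure only the spread between these cultures.

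The series holds 160 arrays from 9 cultures, 14 to 20 arrays per culture, and the culture was taken as the replicate. The number of cultures limits the precision. Median array intensities lay between 1020 and 1284. CSE4 read 23681 and 24236 in the cse4 cultures at the arrest and 317 to 524 in the other 7 cultures. BAR1 read 1794 and 1769 in the cdc8 cultures and 69.6 to 173 elsewhere. CDC20 hardly separated the strains at the arrest, at 424 and 452 in the cdc20 cultures and 465 to 768 in the rest. The a-cell marker genes other than BAR1 (MFA1, MFA2, STE2 and STE6) read between 1635 and 21254 at the arrest, and of the alpha-cell markers MF(ALPHA)1, MF(ALPHA)2 and STE3 read 105 to 692 and SAG1 846 to 1936. For each gene and culture, the arrest level is the geometric mean intensity over 5 or 6 arrays late in the time course, 200 to 280 min in cdc20, 180 to 260 min in cdc8, 255 to 330 min in cse4 and 198 to 270 min in cdc8cdc20 and rad53, and the start level covers the first 3 array times shared by the cultures of a strain, which were 40 to 80, 30 to 60, 90 to 120 and 18 to 54 min. The second cdc20 culture also had an array at 20 min, which the start level leaves out since the first had none. Clock times therefore differ between strains. For the last array of each cse4 culture the title and the source name give different times, and the 345 min of the source name was used. Differences are in log2 with the standard error (SE) of a limma fit over all 9 cultures, and a gene was called at a Benjamini-Hochberg adjusted p of 0.05 or less over the 5716 probe sets.

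At the arrest, most of the genes were lowest in cdc8, and cse4 was the strain most often highest. For 31 of the 39 genes both cdc8 cultures lay below all 7 other cultures, an order that 16.3% of all probe sets showed. The 8 genes outside this order were COX5B, CYC7, SDH1, SDH2, SDH4, ATP2, STF1 and STF2, and for COX5B and STF2 both cdc8 cultures were above all others (2 of 39, against 10.7%). For 16 genes both cse4 cultures lay above all 7 others, against 8.52% of all probe sets, and they include 4 of the 9 oxidase genes and 8 of the 12 ATP synthase genes. The cdc8cdc20 culture was above all others for COX4, QCR6, QCR10, ATP1, ATP16 and STF1 (6 of 39, against 9.41%), and both rad53 cultures were for QCR8, CYC7 and ATP14 (3 of 39, against 15.5%). For no gene were both cdc20 cultures above all others, an order that 20.0% of probe sets showed, and for CYC7, SDH1, SDH2, ATP2 and STF1 both were below all others (5 of 39, against 10.4%). In these bulk samples, less RNA per cell and fewer cells with the RNA cannot be told apart.

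**Figure D1:**
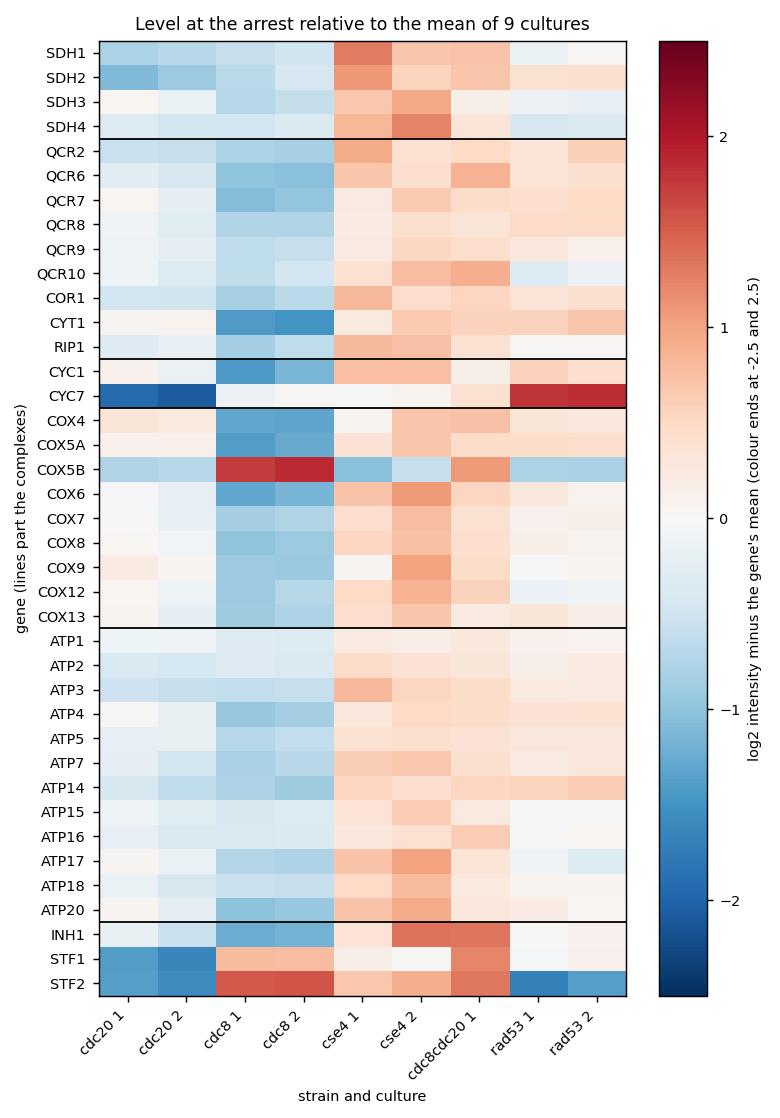
Level of each of the 39 genes at the arrest (rows, parted by complex) in each of the 9 cultures (columns), as log2 intensity minus the gene's mean over the cultures; red is above and blue below that mean. The 2 cdc8 columns are bluest in the rows of 31 genes and red for COX5B, STF1 and STF2, the 2 cse4 columns are mostly red, and CYC7 is deepest red in rad53.

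The comparison of cse4 with cdc20 sets the 2 mitotic arrests side by side. Of the 39 genes, 35 were higher in cse4 and none was lower, against 17.7% higher and 27.1% lower among the probe sets tested, and the median difference was 0.83 over the genes and -0.14 over all probe sets. All 4 genes of complex II, 8 of 9 of complex III, both cytochrome c genes, 6 of 9 of complex IV, all 12 ATP synthase subunits and all 3 inhibitor and stabiliser genes were called. The 4 that were not called were COX4, COX5B, COX9 and CYT1. With either cdc20 culture or either cse4 culture left out, 24 to 37 genes were called.

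Complex II, which links the tricarboxylic acid (TCA) cycle to the chain, had the largest median difference among complexes II, III and IV and the ATP synthase, 1.58. SDH2, the iron-sulfur subunit, read 2790 and 3176 in the cdc20 cultures and 12657 and 8801 in the cse4 cultures, with 3748 and 4433 in cdc8, 9613 in cdc8cdc20 and 7732 and 7823 in rad53. The cdc20 cultures were below all others, and the difference from cse4 was 1.83 ± 0.19 (SE, limma adjusted p = 0.00046). SDH3, a membrane anchor subunit, had the smallest difference of the 4, at 6672 and 5701 in cdc20 against 10274 and 12643 in cse4, a difference of 0.89 ± 0.14 (adjusted p = 0.0028). Its level was 3940 and 4228 in cdc8, 7094 in cdc8cdc20 and 5820 and 5550 in rad53, so that rad53 overlapped cdc20, with cse4 above and cdc8 below all other cultures.

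In complex III the 2 large core proteins differed most. QCR2 read 3831 and 3767 in cdc20 and 10702 and 7331 in cse4, which differed by 1.22 ± 0.19 (limma adjusted p = 0.0023), and it read 3240 and 3165 in cdc8, 7937 in cdc8cdc20 and 7059 and 8540 in rad53. The QCR2 levels of cse4, cdc8cdc20 and rad53 overlapped, whereas cdc20 and cdc8 lay together at the bottom. CYT1, which encodes cytochrome c1, had a different order. Its level was 6709 and 6794 in cdc20, 7587 and 9958 in cse4, 9510 in cdc8cdc20, 9537 and 10310 in rad53, and 2376 and 2252 in cdc8. Here the cse4 minus cdc20 difference of 0.36 ± 0.15 was not called (adjusted p = 0.078), and the cdc8 cultures lay far below all others.

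Among the complex IV genes, COX6 (subunit VI) had the largest difference, with 5147 and 4551 in cdc20, 8631 and 10954 in cse4, 2140 and 2326 in cdc8, 7569 in cdc8cdc20 and 6353 and 5536 in rad53. The 5 strains did not overlap for COX6, and cse4 minus cdc20 was 1.01 ± 0.15 (limma adjusted p = 0.0022). COX5B was the 1 gene of the 39 with a negative difference, -0.09 ± 0.16 (adjusted p = 0.67). Subunit genes of the ATP synthase gave a narrower range, 0.31 to 1.22. ATP3, the gamma subunit of the rotor stalk, read 5823 and 5562 in cdc20, 5449 and 5546 in cdc8, 14518 and 12059 in cse4, 11448 in cdc8cdc20 and 9828 and 9693 in rad53, and its cse4 minus cdc20 difference was 1.22 ± 0.12 (adjusted p = 0.00043). ATP1, the alpha subunit, read 17372 and 17769 in cdc20 and 22352 and 21134 in cse4. Its difference of 0.31 ± 0.10 was called (adjusted p = 0.042) but lost the call with either cdc20 culture or the first cse4 culture left out. ATP1 in cdc8 was 15039 and 14811, in cdc8cdc20 22590 and in rad53 20170 and 20134.

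**Figure D2:**
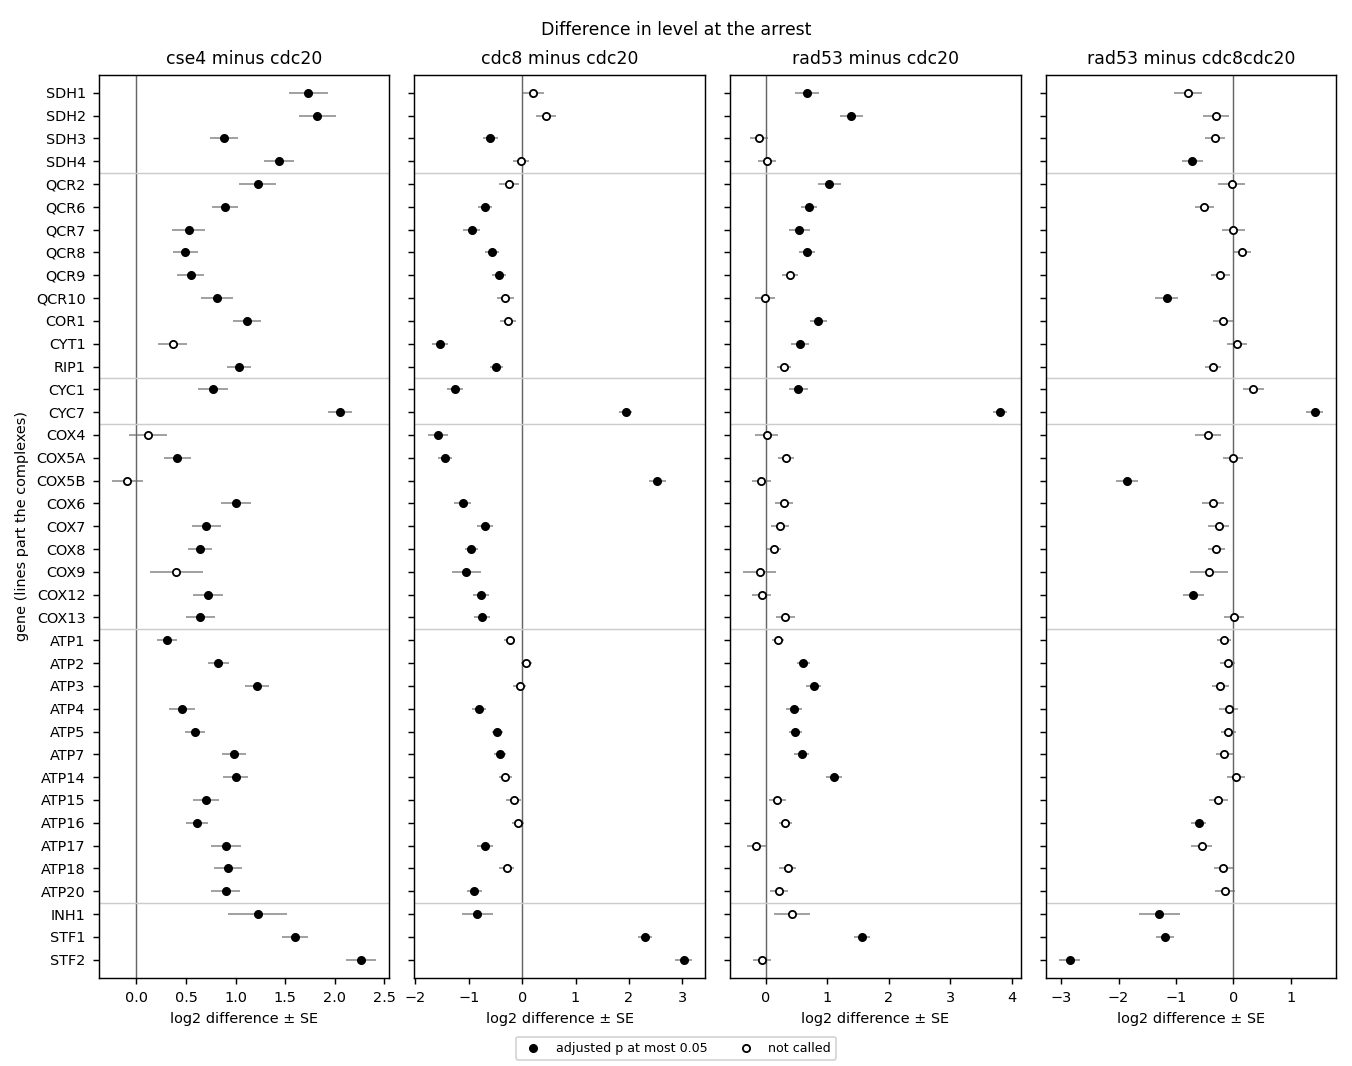
Log2 difference in arrest level for the 39 genes (rows, parted by complex) in 4 comparisons (panels); points are limma estimates with bars of 1 SE, filled where the adjusted p was 0.05 or less. The cse4 panel lies to the right of 0 for 38 genes, the cdc8 panel lies to the left for most with COX5B, CYC7, STF1 and STF2 far to the right, and CYC7 is the farthest point in rad53 minus cdc20.

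Against cdc20, the cdc8 arrest had lower levels of the electron-carrying complexes III and IV and smaller differences in complex II and the ATP synthase. The 1 cdc8cdc20 culture, which also carried cdc8ts, did not share these low levels. Its summed intensity at the arrest was 74192 in complex IV, against 56363 and 51291 in cdc20 and 27242 and 29126 in cdc8. In complex III it was 96734.5, against 59697 and 55074 in cdc20 and 36365 and 38273 in cdc8. Of the 39 genes, 22 were lower in cdc8 (33.0% of all probe sets were lower) and 4 were higher (19.1%), and the median was -0.47 against -0.16 over all probe sets. Complex IV had 8 of 9 genes lower, led by COX4, the subunit IV gene, with -1.58 ± 0.19 (limma adjusted p = 0.00067). Complex III had 6 of 9 lower. Only SDH3 of complex II and 5 of the 12 ATP synthase genes were lower, and no gene of either was higher. CYT1, COX5A and CYC1 had differences of -1.54, -1.45 and -1.26. Without the first cdc8 culture 17 genes were called in place of 26, and with any other of the 4 cultures left out 19 to 21.

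The 4 genes that were higher in cdc8 than in cdc20 were COX5B, CYC7, STF1 and STF2. COX5B read 364 and 379 in cdc20, 297 and 410 in cse4 and 355 and 349 in rad53, but 2078 and 2245 in cdc8 and 1281 in cdc8cdc20. The cdc8 cultures did not overlap any other strain, and the difference from cdc20 was 2.54 ± 0.16 (limma adjusted p = 5.3e-05). Its aerobic counterpart COX5A went the other way, with 2743 and 3013 in cdc8 against 7798 and 7889 in cdc20, a difference of -1.45 ± 0.14 (adjusted p = 0.00023), and 9287 and 11712 in cse4, 9874 in cdc8cdc20 and 9873 and 9809 in rad53. The cdc8cdc20 culture thus had raised COX5B together with a COX5A level close to those of rad53.

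The cytochrome c pair differed in a like manner between cdc8 and cdc20. CYC1 read 12695 and 10513 in cdc20, 4356 and 5334 in cdc8, 19742 and 19762 in cse4, 13062 in cdc8cdc20 and 17578 and 15786 in rad53, and cdc8 minus cdc20 was -1.26 ± 0.15 (limma adjusted p = 0.00062). CYC7 was lowest in cdc20, at 932 and 829, with 3179 and 3597 in cdc8, 3551 and 3736 in cse4, 4611 in cdc8cdc20, and 12117 and 12587 in rad53. The cdc8 and cse4 cultures of CYC7 overlapped (difference 0.11 ± 0.12, adjusted p = 0.51), and both differed from cdc20, by 1.94 ± 0.12 (adjusted p = 4.8e-05) and 2.05 ± 0.12 (adjusted p = 4.2e-05).

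The ATP synthase regulators also split. Inh1, the inhibitor that stops the enzyme from hydrolysing ATP, read 1438 and 1490 in cdc8 and 2985 and 2299 in cdc20. This difference of -0.84 ± 0.30 was close to the threshold (limma adjusted p = 0.047) and lost the call when any 1 of the 4 cultures was left out. INH1 was 4313 and 8652 in cse4, 8587 in cdc8cdc20 and 3400 and 3628 in rad53, so the cse4 cultures differed from each other by 1.00. STF1, an Inh1-related protein, read 5447 and 5434 in cdc8 against 1201 and 1019 in cdc20, with 3486 and 3216 in cse4, 7417 in cdc8cdc20 and 3051 and 3478 in rad53. STF2, which helps bind the inhibitors and is also known from desiccation stress, read 8495 and 8780 in cdc8, 1136 and 988 in cdc20, 4683 and 5530 in cse4, 7317 in cdc8cdc20, and 909 and 1126 in rad53. The cdc8 minus cdc20 differences were 2.30 ± 0.13 for STF1 (adjusted p = 3.2e-05) and 3.03 ± 0.15 for STF2 (adjusted p = 2.4e-05), and STF2 in rad53 overlapped cdc20.

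Set against cdc8, the cse4 arrest had 35 of the 39 genes higher (19.0% of all probe sets) and 3 lower (17.3%), with a median of 1.40 against 0.02 over all probe sets. COX5B, STF1 and STF2 were the 3 lower genes and CYC7 was not called. COX6 had the largest positive difference, 2.12 ± 0.15 (limma adjusted p = 0.00011), and all genes of complexes II and III and all ATP synthase subunits were higher. The number called ran from 36 to 38 with any culture of the 2 strains left out. These comparisons share cultures, so their values are set side by side and not counted as separate evidence.

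The rad53 strain, set against cdc8cdc20, adds rad53-1 to the same cdc8ts allele and Cdc20 construct. The study states that the checkpoint needs Rad53 to arrest cells, and that Cdc20 was depleted to keep them from progressing. Loss of Rad53 function and a different kind of arrest therefore cannot be told apart here. Of the 39 genes, 8 were lower in rad53 (11.7% of all probe sets) and 1 was higher (12.6%), with a median of -0.26 against 0.03. cdc8cdc20 has 1 culture, whose spread was taken from the other strains. STF2 had the largest difference, -2.85 ± 0.19 (limma adjusted p = 0.00033), followed by COX5B, -1.86 ± 0.19 (adjusted p = 0.0016), INH1, -1.29 ± 0.36 (adjusted p = 0.04), STF1, -1.19 ± 0.16 (adjusted p = 0.003) and QCR10, -1.16 ± 0.20 (adjusted p = 0.0076), a small subunit of complex III. COX12, SDH4 and ATP16 were the other 3 lower genes, and CYC7 was the higher one, 1.42 ± 0.15 (adjusted p = 0.0015). Without either rad53 culture 5 genes were called, in each case with INH1, COX12, SDH4 and ATP16 lost. Over the last 5 arrays, 288 to 360 min, 4 genes were called, all lower, and CYC7 turned to -0.48 (adjusted p = 0.17).

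CYC7 in rad53 reached its highest level, 18474 in the first culture and 15789 in the second, at 198 min, and had fallen to 2973 and 3097 by 360 min. Over the same time cdc8cdc20 climbed to 5551 at 342 min and stayed at 5532 at 360 min. Both rad53 cultures followed the same course. COX5B moved apart in the other direction, with its highest value in rad53 on the first array, 1952 and 1762 at 18 min, and its lowest, 329 and 325, at 198 and 252 min, while cdc8cdc20 rose from 226 at 54 min to 1388 at 342 min. STF2 climbed from 300 at 36 min to 8163 at 198 min in cdc8cdc20 whereas in rad53 it read 382 to 2570 on every array after 18 min in both cultures.

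A further comparison, of rad53 with cdc20, was added after the values had been seen. Of the 39 genes, 17 were higher in rad53 (18.6% of all probe sets) and none was lower (24.2%), with a median of 0.35 against -0.07. The 17 included 6 of 9 genes of complex III, 6 of 12 of the ATP synthase, SDH1 and SDH2, both cytochrome c genes and STF1, and none of the 9 oxidase genes. CYC7 had the largest difference in the set, 3.81 ± 0.12 (limma adjusted p = 6.6e-06), followed by STF1, 1.56 ± 0.13 (adjusted p = 0.00038), SDH2, 1.39 ± 0.19 (adjusted p = 0.0017), and ATP14, subunit h of the ATP synthase, 1.11 ± 0.12 (adjusted p = 0.00093). The 9 oxidase genes ranged from -0.10 to 0.33. Without 1 culture 10 to 13 genes were called, with 10 without the second culture of cdc20 or of rad53 and 11 without the first rad53 culture. SDH1, CYT1 and QCR7 were among the genes whose calls were lost without either rad53 culture.

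At the start of sampling both cdc8 cultures already lay below all others for 27 of the 39 genes (23.8% of probe sets) and above them for COX5B and STF1 (16.2%). Both cse4 cultures were highest for 19 genes (6.68%), and both cdc20 cultures were lowest for 6, QCR2, SDH1, SDH2, SDH3, ATP1 and ATP2 (11.1%). In the test of cdc20 against cdc8, 25 of the 39 genes were higher in cdc20 (32.2% of all probe sets) and 5 were lower (21.5%), with a median of 0.89 against 0.16. Complex IV had 8 of 9 genes higher with COX5B lower, complex III had 7 of 9 higher, and the ATP synthase had 9 of 12 higher and ATP2, the beta subunit, lower. Among the genes higher in cdc20, COX4 differed most, at 11283 and 9203 in cdc20 against 2585 and 2777 in cdc8, by 1.93 ± 0.33 (limma adjusted p = 0.0026). The lower genes were STF2, at 579 and 683 against 2953 and 3281, then STF1, COX5B, SDH1 and ATP2. SDH1, at 652 and 716 against 1821 and 1676, lost its call when any 1 of the 4 cultures was left out. GAL1, the galactokinase gene that responds to galactose, read 3284 and 3919 in cdc20 and 280 and 298 in cdc8 over the same arrays, with 21009 and 11392 in cse4, 1930 in cdc8cdc20 and 2935 and 2174 in rad53. The part of earlier medium in the start levels was not tested. With the first array time shared by a strain's cultures alone as the start (40 min in cdc20, 30 min in cdc8), 21 genes were called, 15 higher and 6 lower, and the differences of QCR9 and RIP1 crossed 0.

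From the start to the arrest in cdc20, complex II rose and most oxidase genes fell, while complex III and the ATP synthase held genes of both directions. Of the 39 genes 11 rose (31.4% of all probe sets) and 15 fell (31.1%), shares near those of all probe sets. All 4 complex II genes rose, by 1.06 to 2.22. In complex III the catalytic Rieske protein gene RIP1 and both core protein genes, COR1 and QCR2, rose by 0.33 to 0.42, while 4 of the small subunits fell, QCR6, QCR7, QCR8 and QCR10. No oxidase gene rose and 7 of 9 fell, by 0.33 to 0.98. In the ATP synthase ATP1 and ATP2, which form the catalytic head, rose by 0.54 and 0.98, and ATP14, ATP18 and ATP20 fell. STF1 and STF2 rose and CYC7 fell by 0.48 ± 0.16 (limma adjusted p = 0.027), a call that was lost without either cdc20 culture. With the 40 min arrays alone as the start, 7 genes rose and 10 fell, and STF1 turned to -1.32 (limma adjusted p = 0.0054). In the second culture STF1 and STF2 were highest at 20 min, before the start window, at 6157 and 7292.

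SDH1, the flavoprotein subunit of complex II, changed most in cdc20. Its start level was 652 and 716 and its arrest level 3072 and 3287, a rise of 2.22 ± 0.14 (limma adjusted p = 2.6e-05), and on single arrays it went from 457 and 418 at 60 min to 4853 at 300 min in the first culture and 6000 at 360 min in the second. Both cultures were still at their highest on their last array. The start window holds an early low, since SDH1 in the second culture had read 2124 at 20 min, before that window. CYC1 changed least, by 0.01 ± 0.11 (adjusted p = 0.92), from 13718 and 9545 at the start to 12695 and 10513 at the arrest.

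**Figure D3:**
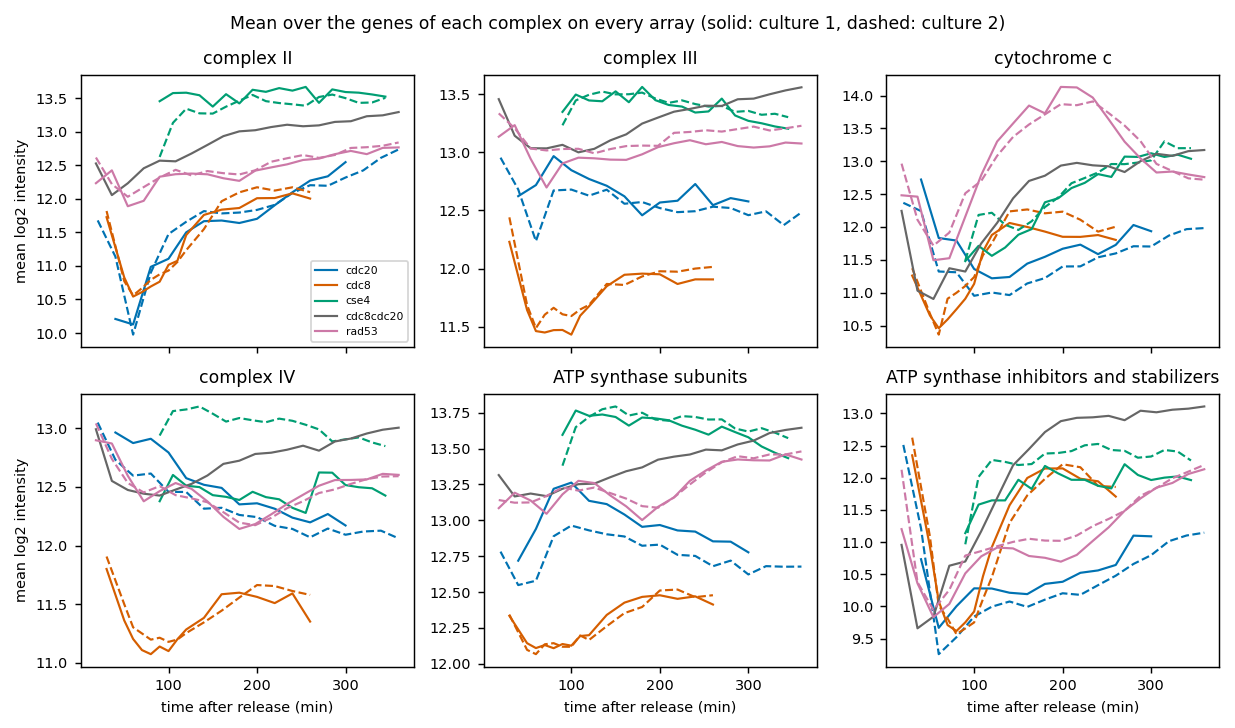
Mean log2 intensity over the genes of each complex (panels) on every array against time after release in minutes, 1 colour per strain, solid for culture 1 and dashed for culture 2. Complex II climbs in cdc20 and cdc8 from about 60 min, complex IV in cdc20 declines after the start, and the cdc8 lines run lowest in complexes III and IV and the ATP synthase.

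In cdc8, 20 of the 39 genes rose (22.6% of all probe sets) and 1 fell (23.8%). Complex II rose throughout, by 0.48 to 1.42, and CYC7 rose by 1.87 ± 0.16 (limma adjusted p = 8.4e-05), from 877 and 976 to 3179 and 3597. STF2 rose by 1.47 ± 0.12 (adjusted p = 8.4e-05). Of the oxidase genes only COX12 rose, by 0.47 ± 0.09 (adjusted p = 0.0029), and QCR6 was the 1 gene that fell. These values depend on the start. The mean over all 39 genes dropped from 12.07 and 12.18 at 30 min to 11.32 at 80 min and 11.36 at 60 min in the 2 cultures and returned to 11.92 and 12.05 at 260 min, and 34 of the 39 genes had their lowest array by 108 min in each culture. With the 30 min array alone as the start, 5 genes rose and 10 fell. Without the first cdc8 culture 13 genes were called and without the second 8.

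In cse4 few of the genes changed, since 5 of the 39 rose (29.1% of all probe sets) and 3 fell (32.9%). CYC7 rose by 2.08 ± 0.16 (limma adjusted p = 3e-05), STF1 by 1.08 ± 0.12 (adjusted p = 0.00016), CYC1 by 0.47 ± 0.11 (adjusted p = 0.0067), STF2 by 0.43 ± 0.12 (adjusted p = 0.016) and ATP2 by 0.25 ± 0.08 (adjusted p = 0.029). COX7, ATP16 and COX5B fell, and no gene of complexes II or III was called. The first cse4 array was taken at 90 min, later than the 54 to 80 min at which the mean over the 39 genes was lowest in the 7 other cultures. The median gene spanned 0.48 and 0.46 on the log2 scale between its lowest and highest array in the 2 cse4 cultures, and 0.63 to 1.13 in the 7 others, while over all probe sets the median span was 0.98 and 0.81 in cse4 and 0.85 to 1.31 in the others. With only the cse4 cultures in the fit 4 genes were called.

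The window means pass over large early moves of the isoform genes. In cdc8, COX5B went from 3986 and 4431 at 30 min to 655 and 584 at 100 min and was back at 1925 and 2106 at 260 min. CYC1 ran the other way, from 2208 and 1764 at 30 min to 8721 and 10070 at 110 min and 4585 and 5684 at 260 min, whereas COX5A kept within 2430 to 3159 on all cdc8 arrays. COX5B also dropped early in cdc20, in the second culture from 5530 at 20 min to 265 at 120 min, but had come back only to 593 at 360 min. INH1 had its lowest cdc8 values, 311 and 314, at 80 min.

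The rad53 strain had 10 of the 39 genes rising (26.5% of all probe sets) and 9 falling (30.9%), neither share above that of all probe sets. CYC7 rose by 3.11 ± 0.16 (limma adjusted p = 9.3e-06) and STF1 by 1.40 ± 0.12 (adjusted p = 5.3e-05), COX5B fell by 1.33 ± 0.10 (adjusted p = 4e-05) and QCR10 fell by 0.83 ± 0.09 (adjusted p = 0.00019). As in cdc20, no oxidase gene rose and 6 of 9 fell. SDH2 and SDH4 rose, and SDH1 did not change beyond its error, at 4448 and 5335 at the start and 4707 and 5443 at the arrest. Without either rad53 culture 7 genes were called, and with the 18 min arrays alone as the start 2 rose and 10 fell. In the 1 cdc8cdc20 culture, which allows no such test of its own, 25 of the 39 genes had their highest value within the last 3 arrays and the mean over the genes went from 12.52 at 54 min to 13.38 at 360 min.

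**Figure D4:**
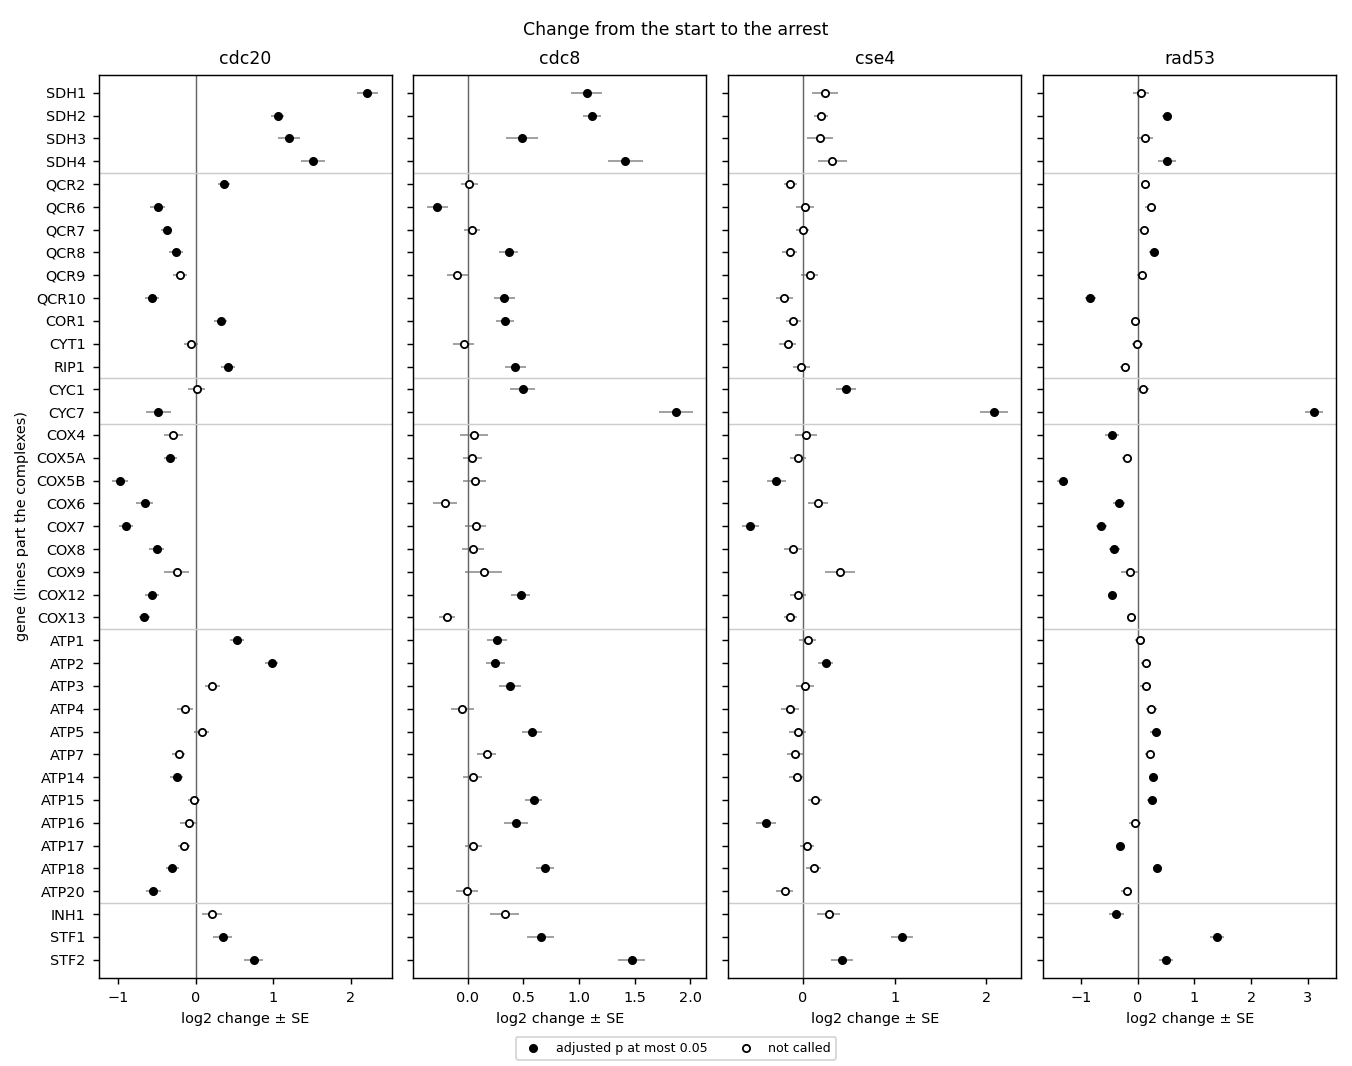
Log2 change from the start to the arrest for the 39 genes (rows, parted by complex) in the 4 strains with 2 cultures (panels); points are limma estimates with bars of 1 SE, filled where the adjusted p was 0.05 or less. Complex II lies farthest right in cdc20, all 9 complex IV genes lie left of 0 in cdc20 and rad53, and CYC7 is left of 0 in cdc20 and far right in the 3 others.

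The change over time was also compared between strains by a test of the difference itself. For cdc20 minus cdc8, 4 of the 39 genes changed more upward in cdc20 (21.9% of all probe sets) and 19 more downward (22.3%), in all 23 against 44.2%. SDH1, ATP2, SDH3 and QCR2 were the 4, and SDH1 had the largest difference, 1.15 ± 0.20 (limma adjusted p = 0.003). Among the 19, CYC7 fell in cdc20 and rose in cdc8, a difference of -2.35 ± 0.22 (adjusted p = 0.0003), and 7 of the 9 oxidase genes were included. Leaving out 1 culture reduced the 23 calls to 11 without the first cdc20 culture, 12 without the first cdc8 culture, 11 without the second cdc8 culture, and 17 without the second cdc20 culture. With the 40 min arrays of cdc20 and the 30 min arrays of cdc8 alone as the start, 7 changed more upward and 5 more downward.

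For cse4 minus cdc20, 11 genes changed more upward in cse4 (22.5% of all probe sets) and 9 more downward (24.3%), in all 20 against 46.8%. The total of 20 was near the share of all probe sets. All 4 complex II genes were among the 9, with SDH1 at -1.97 ± 0.20 (limma adjusted p = 0.00028), as were COR1, QCR2, RIP1, ATP1 and ATP2. CYC7 led the 11 with 2.56 ± 0.22 (adjusted p = 0.00015), and 5 oxidase genes followed with 0.40 to 0.82. Without the first cdc20 culture 11 genes were called and without the second 13, and the highest count with a culture left out was 24.

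**Figure D5:**
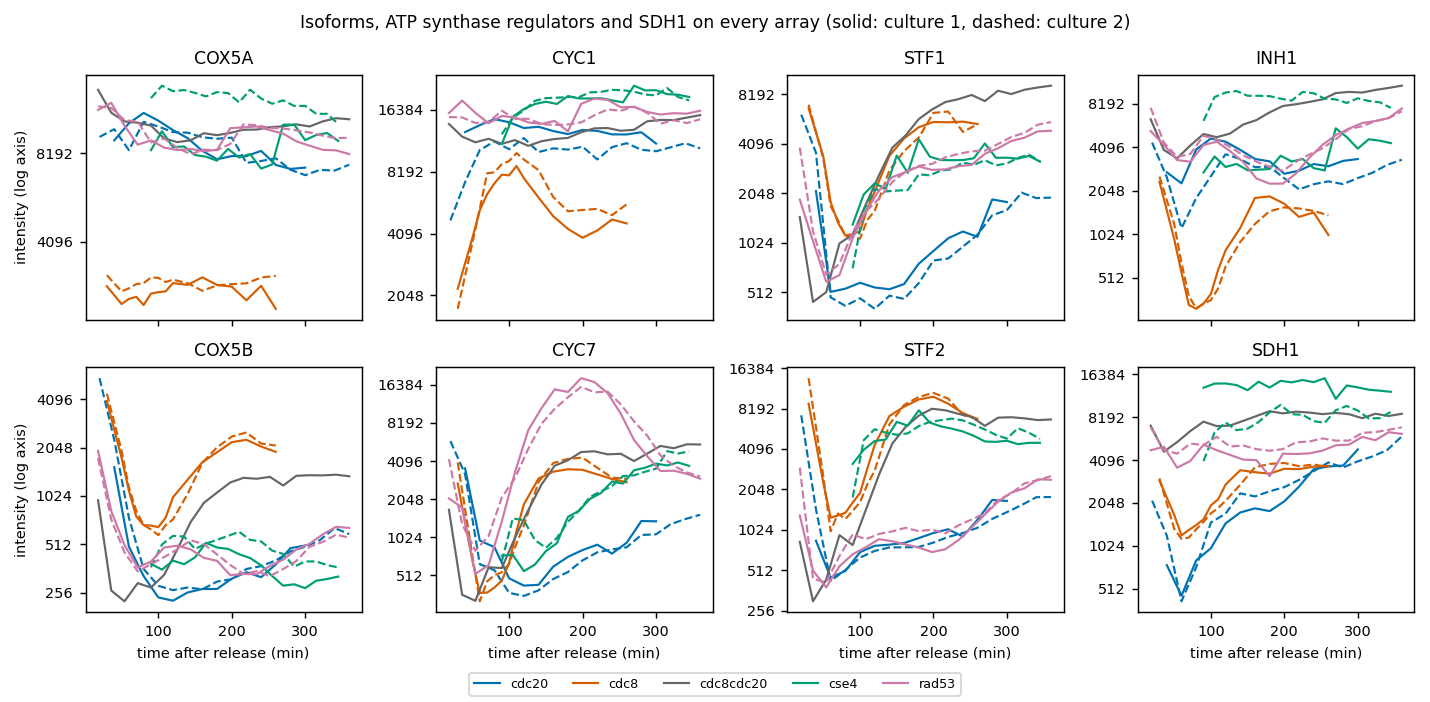
Intensity (log axis) of the isoform genes, the ATP synthase inhibitor and stabiliser genes and SDH1 on every array against time after release in minutes, 1 colour per strain, solid for culture 1 and dashed for culture 2. COX5B is highest in cdc8 at the arrest, CYC7 peaks at 198 min in rad53, STF2 stays low in cdc20 and rad53 after the first arrays, and SDH1 climbs in cdc20 to its last array.

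The 2 cse4 cultures differed from each other at the arrest. In the second culture all 9 oxidase genes were higher, by 0.21 to 0.94, and INH1 was higher by 1.00. Complex II was split, with SDH3 and SDH4 higher by 0.30 and 0.41 and SDH1 and SDH2 at -0.61 and -0.52. Complex III was split too, with 5 genes higher, by up to 0.42 for QCR7, and 4 lower, among them QCR2 (-0.55) and COR1 (-0.36). Of the 12 ATP synthase genes 8 were higher. The median absolute difference between the cultures was 0.30 over the 39 genes and 0.29 over all probe sets, compared with 0.07 to 0.18 over the genes in the other 3 strains with 2 cultures. No test applies to 1 culture against 1, and COX9, at 6040 and 11587 in cse4, was not called against cdc20, whose values of 6635 and 6029 lie on both sides of the first cse4 culture and below the second.

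Oscillation was checked with a Lomb-Scargle rule modelled on the study's, on the first 13 time points. No gene of the 39 was called periodic in cdc20 at the test period nearest to the study's for this strain, where 4.29% of all probe sets were called. In rad53, over the study's window of periods, COR1, CYT1, ATP3, ATP15 and ATP18 were called, 5 of 39 against 17.6% of all probe sets. The p limit of this rule is 0.5 in each culture, and at 0.1 none of the 39 was called in either strain, nor in rad53 over all time points. With a linear trend removed first, 14 were called in rad53, CYC7 among them, where 49.4% of all probe sets were. With 1 culture left out the rule asks for a call in the other alone, so it is laxer. Without the second rad53 culture 11 genes were called (31.4% of all probe sets). In cdc20 without its second culture 4 were called, QCR2, COR1, RIP1 and SDH2 (11.6%). With test periods from 50 to 300 min, added after the values were seen, INH1 was called in cdc20 (1 of 39, against 5.14% of all probe sets) and the same 5 genes in rad53.

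The regulators of the set followed it in part. HAP4 read 6178 and 7011 in cse4, 4034 and 5084 in rad53, 2578 in cdc8cdc20, 1587 and 1191 in cdc20, and 685 and 669 in cdc8 at the arrest, so the strains did not overlap. Its differences were 2.26 ± 0.18 for cse4 minus cdc20 (limma adjusted p = 0.00013) and -1.02 ± 0.18 for cdc8 minus cdc20 (adjusted p = 0.003). The rad53 minus cdc8cdc20 difference of 0.81 ± 0.22 (adjusted p = 0.032) lost the call without either rad53 culture and, with the block by replicate number, was 0.80 (adjusted p = 0.066). HAP1 went against the set. It read 738 and 637 in cdc8 and 287 and 329 in cdc20, a difference of 1.15 ± 0.22 (adjusted p = 0.0044). ROX1, the hypoxic repressor, was higher in rad53 than in cdc8cdc20 by 1.02 ± 0.15 (adjusted p = 0.0044), at 4894 and 5319 against 2519, and HAP2 by 0.95 ± 0.14 (adjusted p = 0.0046). Of 18 regulators measured, 8 were higher and 2 lower in cse4 than in cdc20 (17.7% and 27.1% of all probe sets).

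Other genes of respiration did not all share the order of the 39. All 11 TCA cycle genes were higher in cse4 than in cdc20, with a median of 1.54. All 11 were also higher in cdc8 than in cdc20, with a median of 0.86, whereas complexes III and IV were mostly lower there. IDH1, a subunit of isocitrate dehydrogenase, differed by 2.24 and 2.44 (limma adjusted p = 0.0009 and 0.00048). Of 44 assembly factors for the complexes, 17 were higher and 1 lower in cse4, and 21 were higher and 6 lower in cdc8, each against cdc20. At the start 10 of 11 TCA cycle genes, 23 of 44 assembly factors and 12 of 16 heme and ubiquinone synthesis genes were lower in cdc20 than in cdc8 (21.5% of all probe sets). By the arrest 10, 24 and 15 genes of these 3 lists had risen in cdc20 (31.4% of all probe sets). Of 6 mitochondrial carrier genes, 3 were higher in cse4, and 3 were lower and 1 higher in cdc8, than in cdc20. Of 8 hypoxic genes, 4 were higher and 1 lower in cdc8 than in cdc20, and 1 was higher and 2 lower in cse4. The cse4 counts of the hypoxic genes lay near the shares of all probe sets. Of 7 genes listed as other electron donors, among them YMR31, a subunit of the ketoglutarate dehydrogenase complex, 5 were higher in cse4, and 3 were higher and 1 lower in cdc8. Subunits encoded in mitochondrial DNA were not analysed here.

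Lists of stress, iron and carbon source genes also differed between the strains, not always in the direction of the 39. Over all probe sets, the shares higher than in cdc20 were 17.7% in cse4, 19.1% in cdc8 and 18.6% in rad53. The shares lower were 27.1%, 33.0% and 24.2%. All 13 stress genes were higher in cse4 and 11 of 13 in cdc8 and in rad53 than in cdc20, with summed intensities at the arrest of 15780 and 16246 in cdc20, 94203 and 97123 in cdc8, 71643 and 65442 in cse4, 100705 in cdc8cdc20 and 60224 and 78123 in rad53. Iron uptake and iron-response genes, of which 7 of 10 were higher and 1 lower in cdc8 than in cdc20, had 5 of 10 higher and none lower in cse4, with summed intensities of 83812 and 76986 in cdc8, 17369 and 20067 in cdc20, and 25283 to 54492 in the other 5 cultures. FIT2, a cell-wall protein gene induced when iron is short, read 18983 and 16919 in cdc8 against 386 and 440 in cdc20. Of 19 carbon source genes, 15 were higher and 2 lower in cse4 than in cdc20, and 5 were higher and 5 lower in cdc8. The part of stress, iron or carbon source in the levels of the 39 genes was not tested.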

How the data were processed

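Messenger RNA of 9 cultures was hybridised to 160 Affymetrix Yeast 2.0 arrays, 1 per time point. The deposited table holds linear intensities, which the authors made with affy 1.32.1, named in the submitters' processing notes: invariant-set normalization over all arrays, perfect-match probes only, no background correction, and the dChip model for summaries. Probes for fission yeast were masked. The labels give One-Cycle labelling; the study's methods also name a second kit, and which array had which was not given in the sources used here.

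From these, 184 control probe sets were left out of 5900, and the remaining 5716 were used with no filter on low values; 5498 had a gene symbol and 12 symbols were updated. Values were log2(intensity + 1), averaged per culture over the start or arrest arrays. limma 3.58.1 in R 4.3.3 (lmFit, eBayes) fitted all 9 cultures by strain, with 4 residual degrees of freedom, and p-values were adjusted by Benjamini-Hochberg over 5716 probe sets. Changes over time were fitted on each culture's arrest minus start value. The Lomb-Scargle test, in Python 3.11.15 with numpy 2.4.6, used linear intensities at the first 13 time points and 52 periods from 50 to 200 min, whereas the study's methods give periods up to 300 min and, in cdc20, a window of 10 min in place of the 1 period used here; that setting was run as an alternative, added after the values were seen. Scripts were tested on simulated data.

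Values in every culture were given, by rule, for the gene with the largest and with the smallest cse4 minus cdc20 difference in each complex, the genes with the largest and smallest change in cdc20, and the isoform and inhibitor genes; others named in the text were chosen after their values were seen. The genes and lists were chosen with earlier results of these data known, and the rad53 minus cdc20 comparison was added after the values were seen. Several comparisons share the cdc20 or cdc8 cultures. Alternatives were quantile normalization, a pseudocount of 32, leaving out the dimmest probe sets, fitting only the strains compared, a block by replicate number, a robust trended prior, other windows and leaving out each culture. No sequences or genome coordinates of the genes were used here.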

Additional observations from a re-analysis of the deposited data

Results flagged for a closer look

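The genes below had a change from start to arrest that differed between strains when the difference itself was tested (limma, adjusted p of 0.05 or less over all probe sets). For cdc20 minus cdc8, 23 of the 39 genes did, against 44.2% of all probe sets. Among the genes described by rule, SDH1 (1.15), SDH3 (0.72) and QCR2 (0.35) changed more upward in cdc20. CYC7 (-2.35), COX5B (-1.04), STF2 (-0.72), CYC1 (-0.48), COX6 (-0.45) and COX5A (-0.36) changed more downward in cdc20. With the first array time shared by a strain's cultures alone as the start, STF2 turned to 0.29.

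For cse4 minus cdc20, 20 of the 39 did, near the share of 46.8% over all probe sets. CYC7 (2.56), COX6 (0.82), STF1 (0.73), COX5B (0.68) and CYC1 (0.46) changed more upward in cse4. SDH1 (-1.97), SDH3 (-1.01), SDH2 (-0.86), QCR2 (-0.51) and ATP1 (-0.48) changed more downward. Both comparisons use the same cdc20 cultures, and the start arrays were taken at other clock times in each strain. No group had 4 or more cultures, so no search for a culture apart from its group was made.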

How the results depend on the processing

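With 2 cultures per strain and 1 of cdc8cdc20, the error rests on 4 residual degrees of freedom, arrays carry no read depth, clock times differ between strains, and the number of cultures limits the precision. Of 6215 single values recomputed under other settings, 5464 kept their direction and their side of the threshold, 429 lost the call, 118 gained one and 27 turned round. Uncalled values that changed sign were not counted among these (177). With a culture left out none turned round and 276 lost the call. Where a count or a direction changed, the cause was not tested. Every gene had 1 probe set, so averaging the probe sets of a gene gave nothing different.

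With each culture left out in turn, the genes called were 24 to 37 (35 with all cultures) for cse4 minus cdc20, 36 to 38 (38) for cse4 minus cdc8, 17 to 21 (26) for cdc8 minus cdc20, 5 to 5 (9) for rad53 minus cdc8cdc20, 10 to 13 (17) for rad53 minus cdc20 and 24 to 26 (30) for the start levels. For the changes they were 18 to 19 (26) in cdc20, 8 to 13 (21) in cdc8, 7 to 10 (8) in cse4 and 7 to 7 (19) in rad53, and for the differences in change 11 to 17 (23) for cdc20 minus cdc8 and 11 to 24 (20) for cse4 minus cdc20. Periodic genes were 1 to 4 (0 with both cultures) in cdc20 and 6 to 11 (5) in rad53. The rule then asks for a call in 1 culture in place of both, which is laxer. It called 9.52% and 11.6% of all probe sets in cdc20 and 27.2% and 31.4% in rad53, against 4.29% and 17.6% with both cultures.

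Fitting only the strains compared gave 14 genes for rad53 minus cdc8cdc20, 4 for the change in cse4 and 11 for cse4 minus cdc20 in change. The last 5 arrays gave 4 genes for rad53 minus cdc8cdc20. The first array time shared by a strain's cultures alone as the start gave 17 for the change in cdc20, 12 for that in rad53, and 12 for each of the differences in change. Periodic genes in cdc20 were 1 on log2 intensities and 1 with a linear trend removed and 1 with periods of 50 to 300 min, and in rad53 they were 0 over all time points, 14 with the trend removed and 0 at a p limit of 0.1.

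The replicate numbers do not pair the cultures, since the 6 correlations of same-numbered deviations ran from -0.28 to 0.21. With a block by replicate number the counts were 33 for cse4 minus cdc20, 38 for cse4 minus cdc8, 25 for cdc8 minus cdc20, 8 for rad53 minus cdc8cdc20, 17 for rad53 minus cdc20 and 29 for the start levels. They were 26, 19, 7 and 21 for the changes in cdc20, cdc8, cse4 and rad53, and 21 and 19 for the 2 differences in change.

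With that first shared array time alone as the start, called values turned round as follows. The start differences became -0.066 for QCR9 and -0.045 for RIP1. The changes in cdc20 became 0.27 for ATP14, -1.32 for STF1, -0.070 for STF2 and 0.27 for HAP4. Those in cdc8 became -0.24 for QCR8, -0.56 for QCR10, -0.26 for COR1, -0.084 for RIP1, -0.024 for SDH3, -0.063 for ATP2, -0.34 for STF1 and -0.36 for STF2, and that of STF2 in rad53 became -0.96. The cdc20 minus cdc8 differences in change became 0.083 for QCR7, 0.092 for QCR8, 0.0079 for QCR10, 0.037 for ATP7, 0.29 for STF2 and 0.0087 for HAP4, and the cse4 minus cdc20 one became -0.14 for HAP4. With the last 5 arrays, CYC7 became -0.48 in rad53 minus cdc8cdc20, and the changes in rad53 became 0.17 for ATP17, 0.46 for INH1, -0.14 for HAP1 and -0.21 for ROX1.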
